A study of Drosophila melanogaster with 69 samples.

Results

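Testes of chinmoST flies at day 5 of adult life were compared with testes of the same strain at day 3. The libraries were chosen by their labels alone (strain, tissue and time), which gave 3 libraries at day 5 and 3 at day 3, 6 of the 69 in the series. Each was a bulk RNA-seq library of poly(A) RNA from whole adult testes. In the labels, chinmoST flies of both days carry a Sod1[X-39] e[1] chromosome over the balancer TM3, which bears Sb[1] and Ser[1], and the flies were not otherwise treated. The lesion in chinmo itself is not given in the labels, and the study describes it as a presumed regulatory change that removes Chinmo from the somatic cyst lineage. The wild-type testes used below were Oregon R, a laboratory strain of another background, and the 12 other chinmoST testis libraries were of days 1, 7, 9 and 11.

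Sperm in Drosophila are made from germline stem cells at the tip of the testis. Their daughters divide as spermatogonia, grow as spermatocytes, pass through meiosis and become spermatids, which build a long flagellum and pack their DNA with protamine-like proteins. Somatic cyst stem cells (CySCs) give rise to the squamous cyst cells that enclose each group of germ cells. Chinmo is a transcription factor downstream of JAK-STAT signalling, and without it the cyst lineage takes on features of ovarian follicle cells and germ cells stop differentiating. Days 3 and 5 lie early in that course, and their comparison asks which transcripts differ at that stage.

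The 6 libraries held between 48461285 and 97744846 estimated counts, and 3 counts corresponded to between 0.0348 and 0.0767 CPM, the count of a gene scaled to the normalised size of its library. The identity of the tissue was checked on TPM, the deposited unit scaled to gene length, on which genes can be compared with each other. The testis tubulin betaTub85D was between 1536 and 2565 TPM, whereas the egg-shell genes Cp36 and Cp38 did not exceed 1.33 and 2.02 TPM. Replicate 1 stood apart from replicates 2 and 3 at both days. The chi-square per gene between replicates was 98.1 and 103 for the pairs with replicate 1 at day 3 against 25.8 for the other pair, and 209 and 203 against 26.3 at day 5. In replicate 1 of day 3, 23 genes of at least 1 CPM were at least 10 times as high as in any other library, among them the digestive enzyme genes alphaTry (32.6 CPM, at most 0.0939 elsewhere) and Mal-A1 (26.2 CPM, at most 0.125 elsewhere). Replicate 1 of day 5 was low in the 17 accessory gland genes, seminal fluid genes of a neighbouring organ, whose summed level was 40.4 CPM there and between 365 and 840 CPM in the other 5 libraries. The targeted gene showed no difference in whole testes. chinmo (chromosome 2L, 1651258 to 1704682, plus strand) was at 307, 298 and 295 CPM at day 3 and at 323, 307 and 290 CPM at day 5 (log2 fold change 0.03 ± 0.15, edgeR adjusted p = 0.902).

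At day 5, some transcripts of late spermatogenesis were lower, and a smaller number of genes was higher, among them 4 of 8 hemocyte genes. Of 14502 genes tested, 440 were called (3.03%), by the quasi-likelihood test of edgeR with an adjusted p below 0.05 together with a 1.5-fold change or more. Of these, 327 were lower (2.25% of all genes) and 113 were higher at day 5 (0.779%). The falls were small and lay in abundant transcripts, with a median log2 fold change of -0.68 and a median level of 127 CPM, and only 9 of them reached a 2-fold change. The called rises were larger and lay in rarer transcripts, with a median of 0.84 at 4.74 CPM, and 45 of the 113 reached 2-fold. A rarer transcript needs a larger change to be called, so that the 2 medians are not an even comparison of size. The median log2 fold change of all genes tested was 0.06. Fewer cells of a type and less RNA per cell cannot be told apart in bulk samples.

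The balance of rises and falls depends on the scaling. Under TMM, which assumes that most genes do not change, 25.7% of the calls were rises. With counts scaled by library size alone, the median gene shifted to 0.24, and 1273 genes were called higher against 50 lower, 96.2% rises. All 440 genes had the same direction under both scalings, but with library size alone 171 of them still reached 1.5-fold and 160 were called. Every fold change below is to be read relative to these medians. The count also depended on which library was left out. Without replicate 1 of day 3 it was 637. Without replicate 2 of day 3 only 2 genes were called, without replicate 3 of day 3 none, without replicate 2 of day 5 none and without replicate 3 of day 5 only 1, by edgeR, although 3281, 2464, 3290 and 2623 genes then had an unadjusted p under 0.05. Without replicate 1 of day 5 the count was 1035, and without replicate 1 of both days, a setting chosen after the libraries had been seen, it was 850. DESeq2 called 839 genes on all libraries. Of the 440 genes, 398 were called in the same direction without replicate 1 of both days, 271 with the 6 libraries of days 3 and 5 alone, 220 with all 36 testis libraries, and between 0 and 2 without replicate 2 or 3 of either day. The counts under each setting are plotted together.

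**Figure D1:**
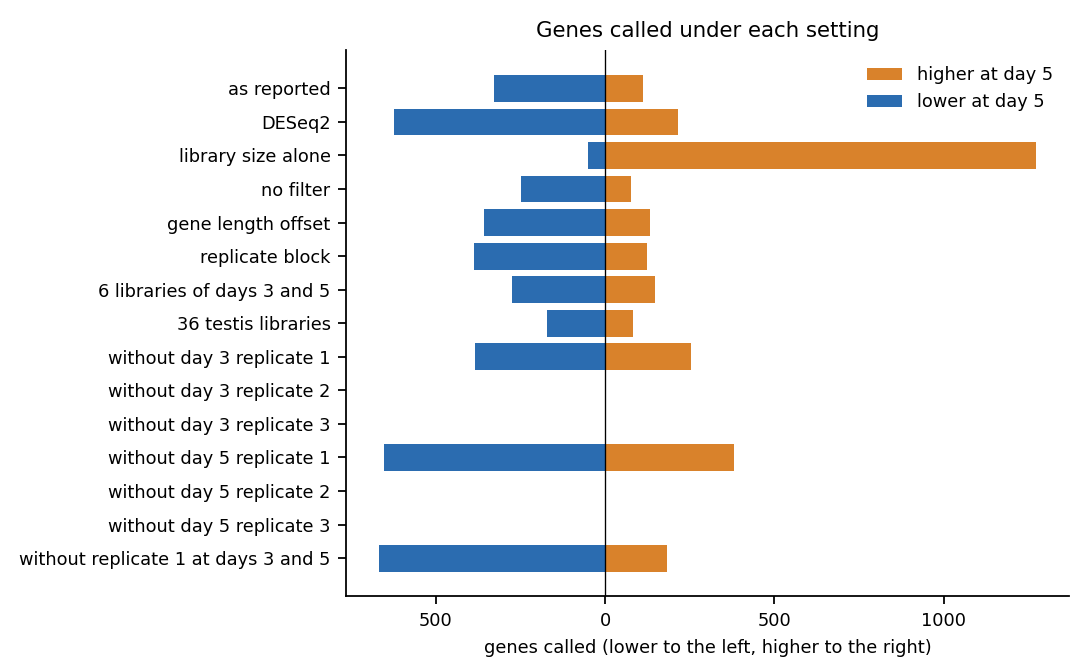
Number of genes called higher (right) and lower (left) at day 5 against day 3 in chinmoST testes, as reported and under each alternative. The 327 falls and 113 rises become 50 and 1273 when libraries are scaled by size alone, and almost no gene is called without replicate 2 or 3 of either day.

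The sex bias of a gene was taken from wild-type ovaries and testes, which include none of the chinmoST libraries. Of the 327 falls, 317 were testis-biased (at least 2-fold higher in wild-type testes than ovaries), none was ovary-biased and 10 were unbiased. Of the 113 rises, 64 were ovary-biased, 31 testis-biased and 17 unbiased, and 1 was not tested for bias. Among all genes tested, 6699 were testis-biased with a median log2 fold change of -0.19, and 5133 were ovary-biased with a median of 0.28. The share of all counts that fell in ovary-biased genes was 16.1, 15.2 and 14.7% in the day 3 libraries and 19.8, 18.7 and 20.0% in the day 5 libraries. The 3 libraries of day 5 all lay above those of day 3, with a difference of 4.21 percentage points (15.3 ± 0.728% to 19.5 ± 0.679%, SD, n = 3 each, two-sided exact permutation p = 0.1, the smallest that 3 against 3 can give). In wild-type testes the same share was between 15.6 and 15.8% at day 3 and between 15.8 and 16.2% at day 5.

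**Figure D2:**
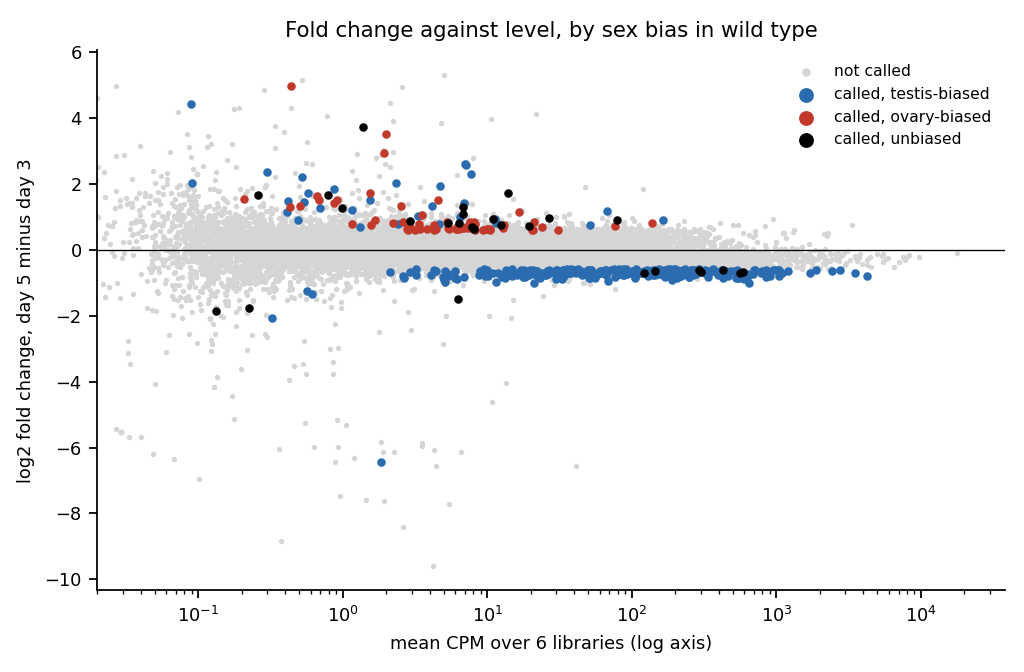
Log2 fold change of day 5 against day 3 for each gene tested, against its mean CPM over the 6 libraries on a log axis (genes under 0.02 CPM and 1 called gene not tested for bias are not drawn). Called genes are coloured by their bias in wild type, and 317 of the 327 falls are testis-biased while 64 of the 113 rises are ovary-biased.

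Genes of the Y chromosome were among the falls. Y-linked genes are expressed only in males, and the fertility factors among them include giant axonemal dynein genes that are transcribed in spermatocytes and needed for sperm tails. Of 58 Y-linked genes tested, 7 were called lower (12.1%, against 2.25% of all genes) and none higher, while 27 (46.6%) had a positive value. Of the 11 Y-linked fertility genes tested, 5 were lower (kl-2, kl-3, kl-5, ORY and Ppr-Y), none was higher, and the median was -0.73. The other 2 of the 7 were CG45764 and CR45771.

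ORY (chromosome Y, 3561745 to 3618339, plus strand) was at 27.1, 23.9 and 32.8 CPM at day 3 and at 14.7, 15.4 and 11.4 CPM at day 5, a log2 fold change of -1.02 ± 0.21 (edgeR adjusted p = 0.0339). kl-5, a heavy chain of axonemal dynein (chromosome Y, 22250 to 137486, minus strand), was at 54.9, 68.4 and 92.1 CPM at day 3 and at 38.3, 40.5 and 40.1 CPM at day 5 (-0.86 ± 0.18, adjusted p = 0.0339). The 2 groups did not overlap for either gene, as for 326 of the 327 falls, which were called on these same values. Among all genes tested, day 5 lay wholly below day 3 in 16.8%. The day 5 libraries of kl-5 lay close together while those of day 3 spread widely. Its sister heavy chains kl-2 and kl-3 fell by 0.88 and 0.87 on the log2 scale, with standard errors of 0.18 for both. The members that did not pass were between -0.73 (CCY) and 0.26 (FDY), and FDY was the only fertility gene with a positive value. The messages of kl-2, kl-3 and kl-5 are long (13386, 13882 and 13680 bases), and libraries of this series differ in their trend with gene length. With a correction for that trend the median of the list was -0.80, and 6 genes were lower. With library size alone it was -0.54, and 4 were lower. With all 36 testis libraries in the fit 1 was lower, with DESeq2 8, and without replicate 1 of both days 7.

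Genes of the sperm head and tail were also among the falls. In the list of sperm chromatin and tail genes, 5 of 28 tested were lower (17.9%, against 2.25% of all genes) and none was higher. Of the 28, 26 had a negative value, and in 20 the day 5 libraries all lay below those of day 3 (16.8% of all genes did so). The median was -0.30, or -0.12 with library size alone, where no member was called. With all 36 testis libraries in the fit none was called either, and without replicate 1 of both days 9 were lower. betaTub85D, the tubulin of the sperm axoneme and meiotic spindle (chromosome 3R, 9408383 to 9410282, minus strand), was at 3782, 4360 and 4824 CPM at day 3 and at 2632, 2775 and 2613 CPM at day 5 (-0.69 ± 0.13, edgeR adjusted p = 0.0339). Mst77F, a chromatin protein of the sperm head (chromosome 3L, 20816901 to 20818027, minus strand), was at 2022, 2087 and 2199 CPM at day 3 and at 1410, 1393 and 1113 CPM at day 5 (-0.69 ± 0.14, adjusted p = 0.0339). Both genes fell by the same amount on the log2 scale, and no library of day 5 reached the lowest of day 3. ProtB, a protamine-like protein, and Tpl94D, a transition protein, were lower by -0.65 and -0.60, and the dynein intermediate chain gene Sdic1 by -0.60. ProtB has a near-identical neighbour, ProtA (-0.65, adjusted p = 0.068), and Sdic1 has tandem copies, so that the division of reads among the copies is uncertain. Several of the most abundant members were close to the median of all genes, such as Mst87F (0.04 ± 0.23) and Mst84Dc (-0.02 ± 0.23).

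The cup and comet genes, which are transcribed after meiosis in elongating spermatids, behaved similarly. Of 18 tested, 3 were lower (soti, sunz and sowi), 16.7% against 2.25% of all genes. None was higher, and the median was -0.30 (-0.12 with library size alone, with none called). soti, which regulates caspases during sperm individualization, was at 515, 558 and 650 CPM at day 3 and at 406, 333 and 286 CPM at day 5 (-0.75 ± 0.15, edgeR adjusted p = 0.0339). sunz was at 100, 122 and 120 CPM at day 3 and at 68.3, 69.5 and 68.0 CPM at day 5 (-0.73 ± 0.14, adjusted p = 0.0339), with no overlap. The comets schuy, hale and boly did not pass and were between -0.12 and -0.04. The 5 markers of late spermatocytes and early spermatids had a median of 0.18 with 3 positive, or -0.17 with none positive without replicate 1 of day 5. Of these, Dpy-30L2 was lower by -0.60 (adjusted p = 0.0441), and bol, a meiotic regulator, was at -0.55 (adjusted p = 0.0593) and did not pass.

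The lists of earlier germline stages held no gene called lower, although the Y-linked fertility genes above are transcribed in spermatocytes too. The 12 meiotic arrest genes, which switch on the spermatocyte program, had a median of 0.12 with none called, and the 10 markers of early and intermediate spermatocytes had a median of 0.16 with none called, by edgeR or DESeq2, and no member of either list had an unadjusted edgeR p under 0.05. Both medians turned without replicate 1 of day 5, to -0.13 and -0.16, and without replicate 1 of both days they were 0.03 and -0.01. The 10 genes of germline stem cells and spermatogonia had a median of 0.56, and 5 of them had day 5 libraries all above those of day 3 (17.7% of all genes did so), but none passed in edgeR, with 6 at an unadjusted p under 0.05. DESeq2 and the fit of the 6 libraries called 1 of them higher, and library size alone 5. Among them, the germline RNA helicase vas was at 0.57 ± 0.22 (edgeR adjusted p = 0.108). The piRNA factor aub was at 33.7, 28.5 and 26.5 CPM at day 3 and at 47.4, 38.5 and 44.7 CPM at day 5 (0.56 ± 0.17, adjusted p = 0.0673). DNA replication and mitosis genes had a median of 0.34, with 26 of 32 positive, 14 with day 5 all above day 3 and none called by edgeR, with 11 at an unadjusted p under 0.05. DESeq2 called 1 higher, the fit of the 6 libraries 2, and library size alone 8. In 75 of 92 ribosomal protein genes the day 5 libraries all lay above day 3, the median was 0.54, and edgeR called none, with 75 at an unadjusted p under 0.05. DESeq2 called 9 of the 92 higher, the fit of the 6 libraries 13, the gene length offset 28 and library size alone 70.

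Several of the largest falls have no role assigned here. CG10734 (chromosome 2R, 16157267 to 16158794, minus strand) was at 886, 835 and 866 CPM at day 3 and at 518, 455 and 302 CPM at day 5 (-1.02 ± 0.16, edgeR adjusted p = 0.0339). CG5968 was at 701, 755 and 887 CPM at day 3 and at 451, 426 and 383 CPM at day 5 (-0.89 ± 0.16, adjusted p = 0.0339). Both were strongly testis-biased in wild type (-11.90 and -12.97 on the log2 scale, ovary minus testis). t-Grip91, a testis form of a gamma-tubulin ring protein, was lower by -0.93, and CG33287, CG12964, CG43902 and lncRNA:CR45707 were between -0.99 and -0.87. l(2)efl, a small heat shock protein of the alpha-crystallin family, was lower by -0.99 (12.6, 15.3 and 17.9 CPM against 8.48, 5.73 and 8.86 CPM). The non-coding asRNA:CR46133 was at 9.55, 8.75 and 9.47 CPM at day 3 and at 3.40, 3.11 and 3.38 CPM at day 5 (-1.49 ± 0.41, adjusted p = 0.0499). It lies antisense to CG2017 (-0.02), and no source used here states strand-specific counting, so that reads of the pair cannot be told apart. CG5107 had the largest fall among called genes (-6.45), but it was at 10.7 CPM in replicate 1 of day 3 and at 0.179 and 0.130 CPM in the other 2, and without that library the value was -1.88.

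**Figure D3:**
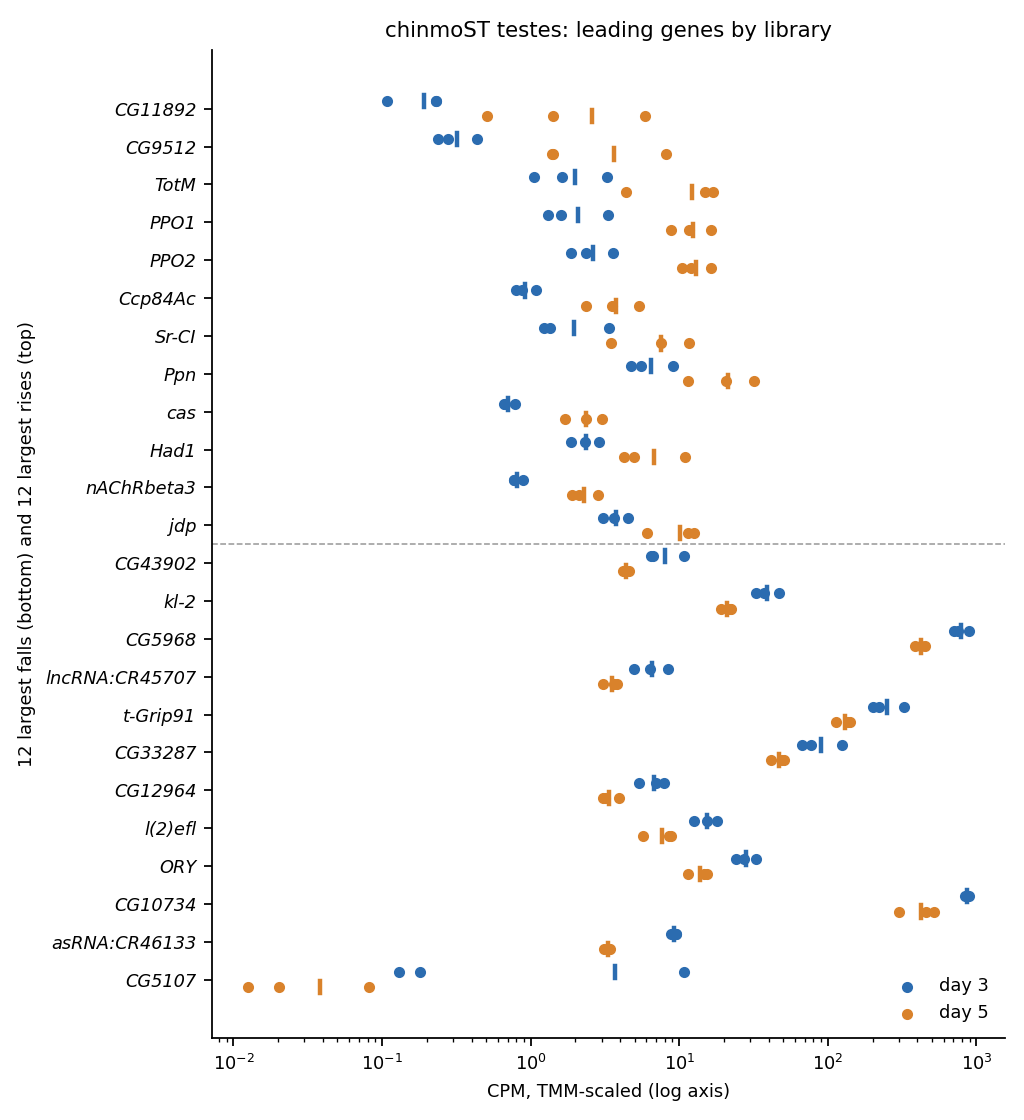
CPM on a log axis of the 12 leading rises and the 12 leading falls, in each library of day 3 (blue) and day 5 (orange), with bars at the group means. The libraries of the days do not overlap, and CG5107 is carried by 1 library of day 3 at 10.7 CPM.

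A single gene of cyst cells and 3 genes of energy metabolism were also lower. alphaTub85E, a tubulin of cyst cells and developing muscle, was at 151, 179 and 163 CPM at day 3 and at 82.5, 105 and 97.1 CPM at day 5 (-0.79 ± 0.18, edgeR adjusted p = 0.0353). It was the 1 gene called of 3 late cyst and head cyst genes, which had a median of -0.15. The 7 markers of early to late cyst cells had a median of 0.27 with 6 positive, and none was called by edgeR or DESeq2. With DESeq2 or the gene length offset 4 were positive (medians of 0.23 and 0.30). Without replicate 3 of day 5, 4 were positive and the median was 0.14. In oxidative phosphorylation, 3 of 80 genes were lower (ND-51L2, COX5BL and UQCR-11L, between -0.70 and -0.60) and none was higher, a share of 3.75% against 2.25% of all genes. None was lower without a filter or with all 36 testis libraries, 7 were with DESeq2, 1 with the length offset, and 8 without replicate 1 of day 5. All 3 are duplicate forms whose symbols end in L or L2. In a split made after these values had been seen, the duplicate forms (symbols in L, L1 or L2) had a median of -0.51 over 21 genes, and the other subunits -0.04 over 59. All 21 duplicate forms were testis-biased in wild type.

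Blood cell genes led the rises. Hemocytes are the macrophage-like and melanizing cells of fly blood. Of the 8 hemocyte genes tested 4 were higher (Hml, Ppn, Sr-CI and eater), 50.0% against 0.779% of all genes. None was lower, and the median was 1.14. In wild-type testes 7 of the 8 also had a positive value between these days, with a median of 0.55 and none called. Hml, a clotting protein of plasmatocytes (chromosome 3L, 13846054 to 13860001, plus strand), was at 4.17, 4.83 and 3.93 CPM at day 3 and at 6.93, 11.1 and 7.91 CPM at day 5 (1.00 ± 0.21, edgeR adjusted p = 0.0339). The scavenger receptor Sr-CI was at 1.22, 3.35 and 1.34 CPM at day 3 and at 3.46, 11.6 and 7.49 CPM at day 5 (1.95 ± 0.51, adjusted p = 0.0443), so that its lowest day 5 library was just above its highest of day 3. The phagocytosis receptors eater and NimC1 were at 1.29 and 1.44. Only eater passed, at 0.279, 0.512 and 0.432 CPM at day 3 and 0.587, 1.60 and 0.749 CPM at day 5. The summed level of the list was 82.0, 115 and 93.1 CPM at day 3 and 104, 182 and 160 CPM at day 5, and these sums overlapped. With all 36 testis libraries in the fit 2 of the 8 were higher, with the 6 libraries of days 3 and 5 alone 1 of 7, without replicate 2 or 3 of either day none, and without replicate 1 of both days 4. Its member He was at no more than 0.0697 CPM in any library, and srp at 0.24 did not pass. How much of the rise of other immune genes comes with these cells was not tested.

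The prophenoloxidases PPO1 and PPO2, enzymes of melanization made by crystal cells, rose as well, and PPO2 had the lowest adjusted p of all genes. PPO2 (chromosome 2R, 9042261 to 9044709, minus strand) was at 2.36, 3.58 and 1.88 CPM at day 3 and at 11.9, 16.3 and 10.5 CPM at day 5, a log2 fold change of 2.32 ± 0.31 (edgeR adjusted p = 0.0219). PPO1 (2R, 17887220 to 17889973, minus strand) was at 1.60, 3.33 and 1.30 CPM at day 3 and at 11.6, 16.4 and 8.82 CPM at day 5 (2.58 ± 0.64, adjusted p = 0.0394). Every day 5 library was more than 2 times the highest of day 3 for both genes. On the scale of all 36 testis libraries, wild-type PPO1 averaged 2.87 CPM at day 3 and 11.2 CPM at day 5, and wild-type PPO2 6.04 and 13.5 CPM. The difference between the strains in these changes did not pass (0.61 ± 0.82 and 1.16 ± 0.43, adjusted p = 0.852 and 0.422).

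TotM, a stress-induced humoral factor, was at 1.63, 3.27 and 1.06 CPM at day 3 and at 4.37, 15.0 and 16.9 CPM at day 5 (2.62 ± 0.69, edgeR adjusted p = 0.0439). upd3, a cytokine ligand of the JAK-STAT receptor, was at 0.256, 0.844 and 0.281 CPM at day 3 and at 0.587, 3.26 and 6.33 CPM at day 5 (2.93 ± 0.74, adjusted p = 0.0402), and its groups overlapped through replicate 1 of day 5. It was the 1 member of 10 in the JAK-STAT list that passed, while the hub ligand upd1 was at -0.31 and the receptor dome at 0.19. Of 19 antimicrobial peptide and related genes, PGRP-SB1 alone was higher (1.52 ± 0.41, adjusted p = 0.0465) and the median was 0.75. Tsf1, an iron carrier secreted by the fat body, was at 111, 116 and 113 CPM at day 3 and at 174, 218 and 249 CPM at day 5 (0.92 ± 0.21, adjusted p = 0.0362). It was the only member of 11 in that list to pass, and the storage protein gene Lsp1beta was at -1.13 (adjusted p = 0.184).

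All 17 basement membrane and matrix genes had a positive value (7867 of 14502 for all genes), with a median of 0.57. In wild type 13 of the 17 were positive, with a median of 0.13. In 12 the day 5 libraries all lay above day 3 (17.7% of all genes did so), and 2 were called higher (Ppn and Mmp1, 11.8% against 0.779% of all genes). That count was 11 without replicate 1 of day 5, 4 without replicate 1 of both days, none without replicate 2 or 3 of either day, 5 with DESeq2 and 13 with library size alone, and 1 with 6 libraries, with 36 libraries, without a filter or without replicate 1 of day 3. The matrix protease Mmp1 (chromosome 2R, 24671294 to 24688184, minus strand) was at 37.7, 48.8 and 35.9 CPM at day 3 and at 50.6, 105 and 123 CPM at day 5 (1.19 ± 0.33, edgeR adjusted p = 0.0493). Ppn (papilin), a matrix protein made by hemocytes among others, was at 5.49, 9.11 and 4.71 CPM at day 3 and at 11.4, 31.7 and 20.6 CPM at day 5 (1.73 ± 0.36, adjusted p = 0.0339). For both genes replicate 1 was the lowest of day 5, close to the top of day 3. The laminin genes LanB1, LanB2 and LanA were between 0.54 and 0.64 and did not pass, nor did Timp, an inhibitor of matrix proteases (0.61 ± 0.19, adjusted p = 0.0725).

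The transcription factor gene cas was the leading rise among fate regulators. cas (castor) marks early follicle cells of the ovary and also serves in neuroblasts, and it lies on chromosome 3R from 5712975 to 5716805 on the minus strand. It was at 0.790, 0.665 and 0.670 CPM at day 3 and at 2.36, 1.69 and 3.02 CPM at day 5 (1.72 ± 0.42, edgeR adjusted p = 0.0388). Each day 5 library was more than 2 times any of day 3. In wild-type testes it averaged 0.0761 CPM at day 3 and 0.0737 CPM at day 5, and the interaction of strain and day was 1.73 ± 0.83 (adjusted p = 0.569). Of the 13 follicle cell fate factors tested it alone passed, and the median was 0.26. slbo, which directs border cells, was at 0.84 ± 0.56, and tj, shared by CySCs and follicle cells, at 0.68 ± 0.26. None of the 21 yolk, vitelline membrane and chorion genes passed in edgeR (0 at an unadjusted p under 0.05) or DESeq2. Their median was 0.21, -0.11 without replicate 1 of day 3 and -0.34 without replicate 3 of day 5. The 9 CySC markers were all positive (7867 of 14502 for all genes), with a median of 0.40. In 7 of them the day 5 libraries all lay above day 3 (17.7% of all genes did so). None was called by edgeR (7 at an unadjusted p under 0.05) or DESeq2, while the fit of the 6 libraries called 2.

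Signalling lists held at most 1 call each, and 0.779% of all genes were called higher. Sdr, a secreted antagonist of insulin-like peptides, was at 2.80, 3.38 and 2.90 CPM at day 3 and at 3.85, 5.07 and 5.08 CPM at day 5 (0.63 ± 0.17, edgeR adjusted p = 0.0496). It was 1 of 22 insulin pathway genes, which had a median of 0.29, and neither InR (0.31 ± 0.27) nor ImpL2 (0.37 ± 0.18) passed. Dsor1, the MAP kinase kinase of EGFR signalling, rose by 0.67 ± 0.18 (1 of 15), and fng, the glycosyltransferase that modifies Notch, by 0.66 ± 0.16 (1 of 10). gcl, a maternal factor of primordial germ cells, rose by 0.65 ± 0.14 (1 of 15 female germline genes). All 10 Hedgehog pathway genes were positive (7867 of 14502 for all genes), with a median of 0.33. Neither edgeR nor DESeq2 called any of them, or any of 11 BMP, 13 Wnt and 16 ecdysone genes (medians of 0.36, 0.29 and 0.36), with 7, 5, 3 and 2 genes at an unadjusted edgeR p under 0.05. Of the 11 sex determination genes none passed in either (4 at an unadjusted p under 0.05), with dsx at 0.35 ± 0.24, tra at 0.29 ± 0.15 and fru at -0.18 ± 0.09.

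**Figure D4:**
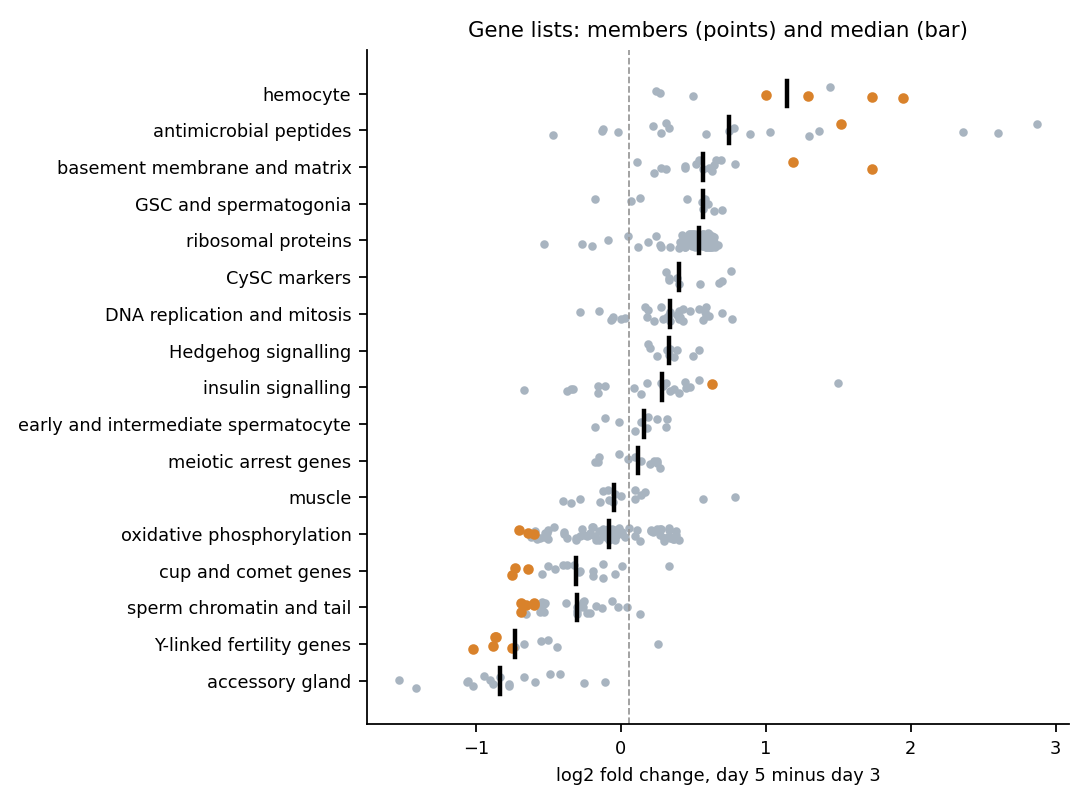
Log2 fold change of day 5 against day 3 for the members of 17 gene lists, with called members in orange, the list median as a bar and the median of all genes (0.06) as a dashed line. Among the lists plotted, hemocyte genes sit highest with a median of 1.14, and Y-linked fertility and accessory gland genes lowest with medians of -0.73 and -0.83, which become -0.79 and -0.30 without replicate 1 of day 5.

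Among the genes of the genotype label, e (ebony), an enzyme of cuticle pigmentation and dopamine metabolism for which the flies carry a mutant allele, was higher. It was at 4.65, 4.55 and 3.78 CPM at day 3 and at 6.69, 9.59 and 11.1 CPM at day 5 (1.08 ± 0.27, edgeR adjusted p = 0.0400). Sod1 (0.05 ± 0.21), Sb (0.14 ± 0.26) and Ser (-0.26 ± 0.23) did not pass. The other leading rises were Ccp84Ac, a cuticle protein gene, at 2.02, nAChRbeta3, a neuronal acetylcholine receptor subunit, from 0.767, 0.767 and 0.886 CPM to 1.89, 2.85 and 2.12 CPM, jdp, a J-domain protein gene, at 1.43, Had1 at 1.51, CG9512 at 3.53 and CG11892 at 3.73. The last 2 rested mainly on replicate 3 of day 5, at 8.15 and 5.85 CPM against at most 1.42 CPM in the other libraries, and without it they were 2.16 and 2.31. Of 25 tested genes from a list of some, not all, of those the study discusses, Mmp1 rose, Mst77F and alphaTub85E fell, and 22 did not pass, including Fas3, a somatic adhesion molecule (0.36 ± 0.17), Arc1 (0.93 ± 0.38), ovo (0.82 ± 0.46) and chic (0.23 ± 0.20). The study compared chinmoST with wild type within cell types by single-cell RNA-seq, so that its changes are not the same measure as a difference between days in whole testes.

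Genes of the male ejaculatory tract differed in another way. The ejaculatory duct list was at a median of -1.22 with none of 7 called by edgeR (2 at an unadjusted p under 0.05) or DESeq2, while the fit of the 6 libraries of days 3 and 5 alone called 4 lower. The accessory gland list was at -0.83 with none of 17 called by either (0 at an unadjusted p under 0.05). Its median was -0.30 without replicate 1 of day 5, -1.78 without replicate 2 of day 5 and -0.29 without replicate 1 of both days. The ejaculatory duct peptide gene Dup99B was at 3.81, 4.22 and 3.26 CPM at day 3 and at 0.0470, 0.0375 and 0.0809 CPM at day 5 (-6.12 ± 2.74, edgeR adjusted p = 0.159). The odorant-binding protein gene Obp51a was at 6.48, 6.60 and 7.57 CPM at day 3 and at 0.0352, 0.0874 and 0.263 CPM at day 5 (-5.87, adjusted p = 0.217). In 8 genes chosen after their values were seen, these among them, each day 3 library was at least 10 times each of day 5, and none of the 8 passed. In wild type the same 2 genes were the other way round, Dup99B at 0.0473 CPM at day 3 and 1.71 CPM at day 5 and Obp51a at 0.0275 and 1.99 CPM. Whether this tissue plays a part in the falls listed above was not tested. The muscle list, another neighbouring tissue, had a median of -0.04 (0.13 with library size alone) and no call.

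Later libraries of the strain, which share none with days 3 and 5, show how these genes continued. Between days 7 and 11, 18.8% of all genes tested were called lower and 15.0% higher. Of the 327 genes that fell by day 5, 127 fell again between days 7 and 11 (38.8%) and 3 rose. Of the 113 that rose, 28 rose again (24.8%) and 35 fell (31.0%). betaTub85D averaged 2673 ± 88.5 CPM at day 5 (SD, n = 3), 1835 ± 168 CPM at day 7 and 1018 ± 165 CPM at day 11. cas averaged 2.35 ± 0.664 CPM at day 5, 4.94 ± 1.37 CPM at day 7 and 6.13 ± 0.649 CPM at day 11, whereas Hml was at 8.64 ± 2.16, 14.5 ± 1.87 and 7.99 ± 0.387 CPM and Mmp1 at 92.8 ± 37.6, 191 ± 47.6 and 99.9 ± 18.8 CPM on these days. The mean of betaTub85D thus fell from each of these days to the next. Hml and Mmp1 were lower at day 11 than at day 7 (edgeR adjusted p = 0.00393 and 0.0265).

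**Figure D5:**
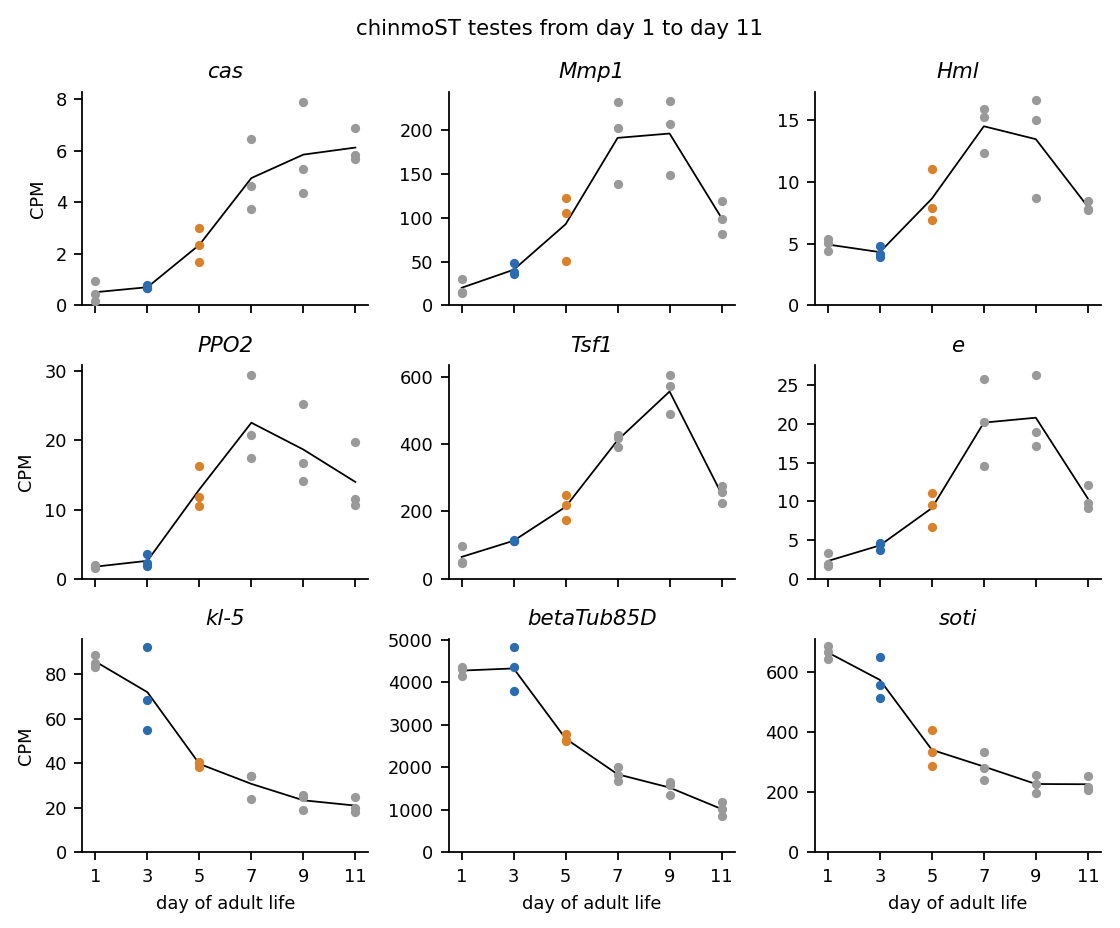
CPM of 9 genes in each chinmoST testis library from day 1 to day 11 (points, with day 3 in blue and day 5 in orange) and the mean of each day (line). cas, Mmp1, Hml, PPO2, Tsf1 and e are higher at day 5 than at day 3, and kl-5, betaTub85D and soti lower, with betaTub85D at a mean of 1018 CPM by day 11.

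Wild-type testes gave no call between the same days (0 of 14910 genes, 0.0%), with 245 genes (1.64%) at an unadjusted edgeR p under 0.05. Replicate 1 of wild type differed widely from the others at both days in many genes. For example, kl-5 was at 25.3, 57.0 and 70.2 CPM at day 3 and at 27.2, 76.3 and 72.1 CPM at day 5. This spread limits what the wild-type test and the test of the difference between the strains can call. The difference between the strains in the change from day 3 to day 5 also gave no call (0.0%), with 1293 genes at an unadjusted p under 0.05, while DESeq2 called 85 genes, all of them lower in chinmoST. No change described above is thus shown by edgeR to differ from that in wild type. The 327 falls had a median of 0.01 in wild type. The 113 rises had a median of 0.21 there, and 97 of them (85.8%) were positive, against 53.2% of all genes tested.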

How the data were processed

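RNA-seq libraries of whole testes were analysed from expected counts, TPM and gene lengths. Per the labels and the submitters' processing notes, the authors used FastQC 0.11.9, Trim Galore 0.6.4, Bowtie2 and RSEM with the dm6 build, and the annotation is not given in the sources used here. The deposited expected counts are fragments per gene estimated by RSEM, not normalized. The deposited TPM values, scaled to gene length and total by the authors, served only to compare genes. The gene lengths are those the authors deposited. Of 17807 gene identifiers, 17710 were found in the BDGP6 annotation, which has the same coordinates.

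Expected counts were rounded, filtered with filterByExpr, scaled by TMM and tested with the quasi-likelihood test of edgeR 4.0.16 (R 4.3.3). All 18 chinmoST testis libraries entered with a coefficient for each day. Wild type and the interaction used all 36 testis libraries, and sex bias all 33 wild-type libraries. Genes were called at a Benjamini-Hochberg adjusted p under 0.05 and 1.5-fold. Errors after ± are standard errors unless given as SD. In counts simulated for this comparison over 14502 genes, 6% of the changes of 1.5-fold, 52% of 2-fold and 82% of 4-fold were called, and 2 unchanged genes were. The share of counts was tested with scipy 1.17.1. The CPM floors, the level of a fixed small count in each library, cover counting error only. The standard errors and SDs also include the spread between libraries. Nothing states whether replicates came from separate cultures, so that p-values measure only the spread between these libraries.

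Members and lists were chosen with earlier results of these data known. The text names, by rule, chinmo and the genes of the genotype label, the 12 largest rises and 12 largest falls among called genes of at least 1 CPM whose days did not overlap, a list of genes the study discusses, and up to 6 called members of each list. Genes described as not passing within a list, and those chosen after their values were seen, fall outside it. Alternatives were DESeq2 1.42.0, library size alone, no filter, adjusted p alone, 6 or 36 libraries, the replicate number as a block, a gene length offset and each library left out. Wild-type values come from the scale of 36 libraries. chinmoST ovaries were not used here.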

Additional observations from a re-analysis of the deposited data

How the results depend on the processing

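The count of 440 genes called became 839 with DESeq2 (216 higher, 623 lower), 1323 with library size alone (1273 higher, 50 lower), 728 at adjusted p alone (189 higher, 539 lower) and 254 with all 36 testis libraries (172 lower). It was 326 without a filter, 420 with 6 libraries and 491 with a gene length offset. Leaving out 1 library gave between 0 and 1035 calls, between 0 and 381 higher and between 0 and 654 lower. Without replicate 1 of both days, chosen after seeing the data, it was 850 (182 higher, 668 lower). Replicate numbers did not pair the libraries throughout. Deviations of same-numbered libraries of days 3 and 5 correlated at 0.385, 0.392 and 0.0337, and replicate 2 of day 3 correlated more with replicate 3 of day 5 (0.403). Replicate 1 of day 3 correlated at -0.286 and -0.325 with replicates 2 and 3 of day 5. Replicate 1 of day 5 correlated at -0.501 and -0.016 with replicates 2 and 3 of day 3. The replicate number as a block gave 510 calls, 1 for wild type and 2 for the difference between the strains, where DESeq2 gave 85. The count of 0 for that difference held in all other alternatives, including each of 12 libraries left out and wild-type replicate 1 of both days left out, the last chosen after seeing the data. The 4.21 points in ovary-biased genes became 2.77 with a 4-fold bias and lay between 3.88 and 4.60 with 1 library left out. chinmo, not called, turned from 0.03 to -0.01 with DESeq2 and -0.04 with the length offset, and was also negative without replicate 1 of both days. The 51 called genes named by rule kept their direction with another tool, scaling, filter, set of libraries, block or length offset, but 314 of their 713 values over all alternatives were below the thresholds for a call.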

Other observations

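The 23 genes that stood out in replicate 1 of day 3 summed to 222 CPM there and to at most 1.49 CPM in any other library. They include the digestive protease genes alphaTry, betaTry, Jon99Ciii, Jon99Cii, Jon65Aiv and Jon65Aiii and the maltase genes Mal-A1, Mal-A7 and Mal-A8. No library of day 3 other than replicate 1 and none of replicates 1 and 2 of day 5 held a gene of this kind, and replicate 3 of day 5 held 1 (Scp2). Of the 23, CG5107 was the only gene called.

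Of 19 genes of at least 1 CPM with a log2 fold change of -4 or less, 11 were carried by replicate 1 of day 3 and the other 8 were high in all 3 libraries of day 3. Met75Cb was at 76.5, 106 and 60.4 CPM at day 3 and at 0.751, 0.450 and 1.46 CPM at day 5, and Spn77Bb, a serpin gene, at 18.6, 24.9 and 18.4 CPM and at 0.763, 0.962 and 0.809 CPM. On the scale of 36 libraries, wild-type Met75Cb was at 1.03 CPM at day 3 and 40.3 CPM at day 5. In chinmoST it averaged 31.7 CPM at day 7 and 104 CPM at day 11, so that its level did not follow the order of the days.

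Of 1660 non-coding genes tested, 40 were called lower (2.41%, against 2.25% of all genes) and 1 higher, and the median was -0.17. On chromosome 4, none of 99 genes was called and 68.7% had a positive value, against 54.2% of all genes.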
